A study of Mus musculus with 15 samples.

Results

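Gene expression was compared between the lungs of mice with ovalbumin-induced allergic asthma and the lungs of control mice, across the whole transcriptome and grouped by cell type and pathway. The comparison used 10 of the 15 samples, 5 labelled OVA and 5 labelled control, and all 12137 genes with a deposited value of at least 1 in at least 5 of the 15 samples. All mice were wild type and all samples belonged to batch 1. Control mice were given saline and neither ovalbumin nor a drug. OVA mice were sensitised to ovalbumin (OVA), a protein of egg white, by injection into the peritoneum and then breathed it as an aerosol. The remaining 5 samples (OVA_Rg3) came from OVA mice that also received 20 mg/kg of ginsenoside Rg3 by gavage. In the model they served only to help estimate the spread between samples, but they also counted in the filter and in the scaling. Strain, age, sex, the number of challenges and the interval from the last challenge to tissue collection are not given in the sources used here. The replicates are labelled as biological, with no statement that each is 1 animal, so p-values measure the spread between these samples.

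In the ovalbumin model, inhaled antigen sets off a type 2 immune response in the airway. T helper 2 cells and innate lymphoid cells release IL-4, IL-5 and IL-13, which drive eosinophil recruitment, mucus production, alternative activation of macrophages and antibody production by plasma cells. The mouse airway is lined mainly by club cells, which secrete secretoglobins and oxidise inhaled chemicals, and by multiciliated cells, whose beating cilia clear mucus. Around the airway lies a layer of smooth muscle, and beyond it lie the alveoli, where type 1 and type 2 epithelial cells meet a dense bed of capillaries. In whole lung, fewer cells of a type and less RNA per cell cannot be told apart.

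The values behave as FPKM, that is, reads scaled to gene length and to the depth of the sample. Steps in the low values imply 0.842 to 9.11 M reads in control and 2.86 to 3.64 M reads in OVA samples. At these depths, 3 reads on a transcript of 1 kb correspond to a deposited value of 0.329 to 0.481 in 4 controls, 3.56 in control 2 and 0.824 to 1.05 in OVA samples, with counting error only. Club cell and alveolar type 2 cell RNA was present in every sample, with Scgb1a1 at 9.52% to 46.5% and Sftpc at 0.390% to 3.50% of the summed values without mitochondrially encoded genes. Markers of liver, skeletal muscle and fat were high in control 2 and OVA 4. The summed level of 17 liver genes was 484 and 467 in these samples and 5.82 to 16.9 in the other 8. Their part in the results was not tested, but values without control 2, OVA 4 and OVA_Rg3 1, a sample with the same markers, are given beside each gene named below whose call they change or whose change they move by over 1.5 times, and for the gene lists beside the list or in the last paragraph.

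Mitochondrially encoded transcripts took 24.6%, 23.4%, 27.1%, 18.9% and 29.3% of the summed values in controls 1 to 5. In OVA 1 to 5 they took 46.2%, 49.9%, 70.5%, 79.8% and 78.6%. All OVA samples lay above all controls, and OVA 3 to 5 lay above OVA 1 and 2. The means were 65.0% ± 15.9 against 24.6% ± 3.95 (SD, n = 5 each; exact permutation test, two-sided, p = 0.00794, the smallest that 5 against 5 can give). Because a share of this size lowers the deposited value of every other gene, each sample was divided by its median ratio over 6365 genes present in all samples. The scaling moved the median log2 change of all genes from -0.73 to -0.09. Levels below are scaled values, and changes are log2 differences of the scaled value plus 1, which understate the change of low genes.

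**Figure D1:**
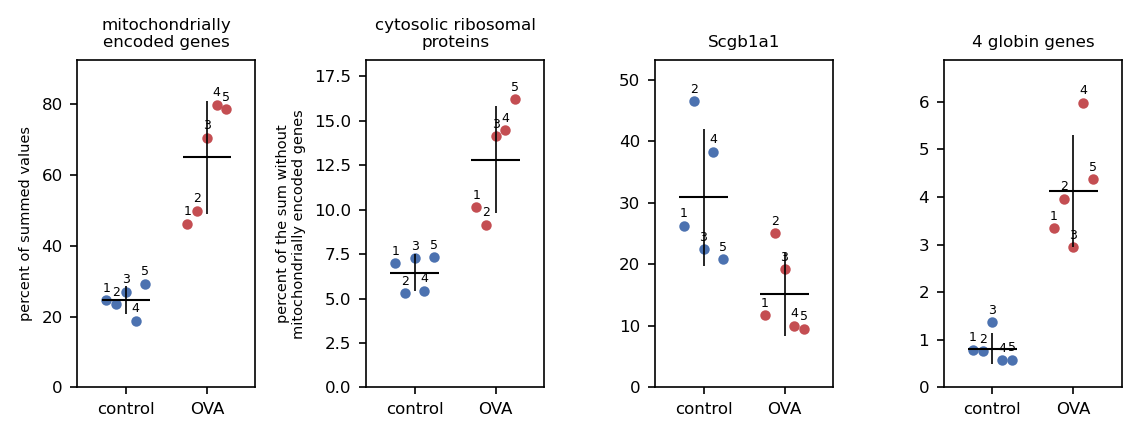
Share of the summed values taken by mitochondrially encoded genes, and shares of the remaining sum taken by cytosolic ribosomal proteins, by Scgb1a1 and by 4 globin genes, in percent, for each control and OVA sample (points numbered by replicate, with mean and SD). The mitochondrial, ribosomal and globin shares were higher in all 5 OVA than in all 5 control samples, and the Scgb1a1 shares overlapped.

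With OVA, 1933 of 12137 genes changed (15.9%; limma, Benjamini-Hochberg adjusted p under 0.05). Of these, 655 rose (5.40% of the genes tested) and 1278 fell (10.5%). The median change was 0.93 among genes that rose and -1.04 among genes that fell. The groups did not overlap for 661 genes that were higher (5.45%) and 1374 that were lower (11.3%) in all OVA than in all control samples. The size of the imbalance depended on the scaling, since quantile normalisation gave 921 higher and 1085 lower, and values as deposited gave 70 higher and 6216 lower. Under all 3 scalings, 61 genes were called higher (0.503%) and 1010 lower (8.32%). All 1278 falls were also called as deposited, so for falls only quantile normalisation could remove a call. The deposited values of all genes together lay lower in OVA (median -0.73), so falls are kept and small rises lost in them by construction, and these counts do not compare rises with falls. Leaving out control 3 or control 4 left 414 or 406 genes higher, and leaving out control 1, control 3, control 4 or OVA 5 left 833, 761, 803 or 828 lower.

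The change was not spread evenly over levels of expression. In the quartile of genes with the highest mean level, 13.1% were called higher and 9.72% lower, and in the quartile with the lowest level the shares were 1.68% and 11.8%. The filter used deposited values, which lay lower in OVA, so low genes can enter through the controls alone. Upk2, Gmnc, Rsph14, Dnaic2, Chrm2, Xcr1 and Il1rap, for instance, had a deposited value of at least 1 in every control and in no OVA sample. OVA samples were also shallower than all controls but control 2. The part of filter and depth in these shares was not tested. Genes of short span, up to 9714 bases, were called higher in 7.64% and lower in 9.0%, and genes of the longest quartile in 5.14% and 11.6%. Spread within a group was larger in OVA than in control samples for 66.7% of genes, with median SDs of 0.34 and 0.26 on the log2 scale.

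The genes of 116 lists for cell types and pathways held 505 of the called genes, 202 higher and 303 lower of 2410 tested. Over all genes tested, 5.40% were higher and 10.5% lower. By class, airway epithelial lists had 4 genes higher and 140 lower of 281 tested, and mesenchymal lists 9 higher and 36 lower of 149. Endothelial lists had 12 higher and 1 lower of 51, and immune cell lists 29 higher and 5 lower of 138. Alveolar epithelial lists had 4 higher and 8 lower of 50.

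**Figure D2:**
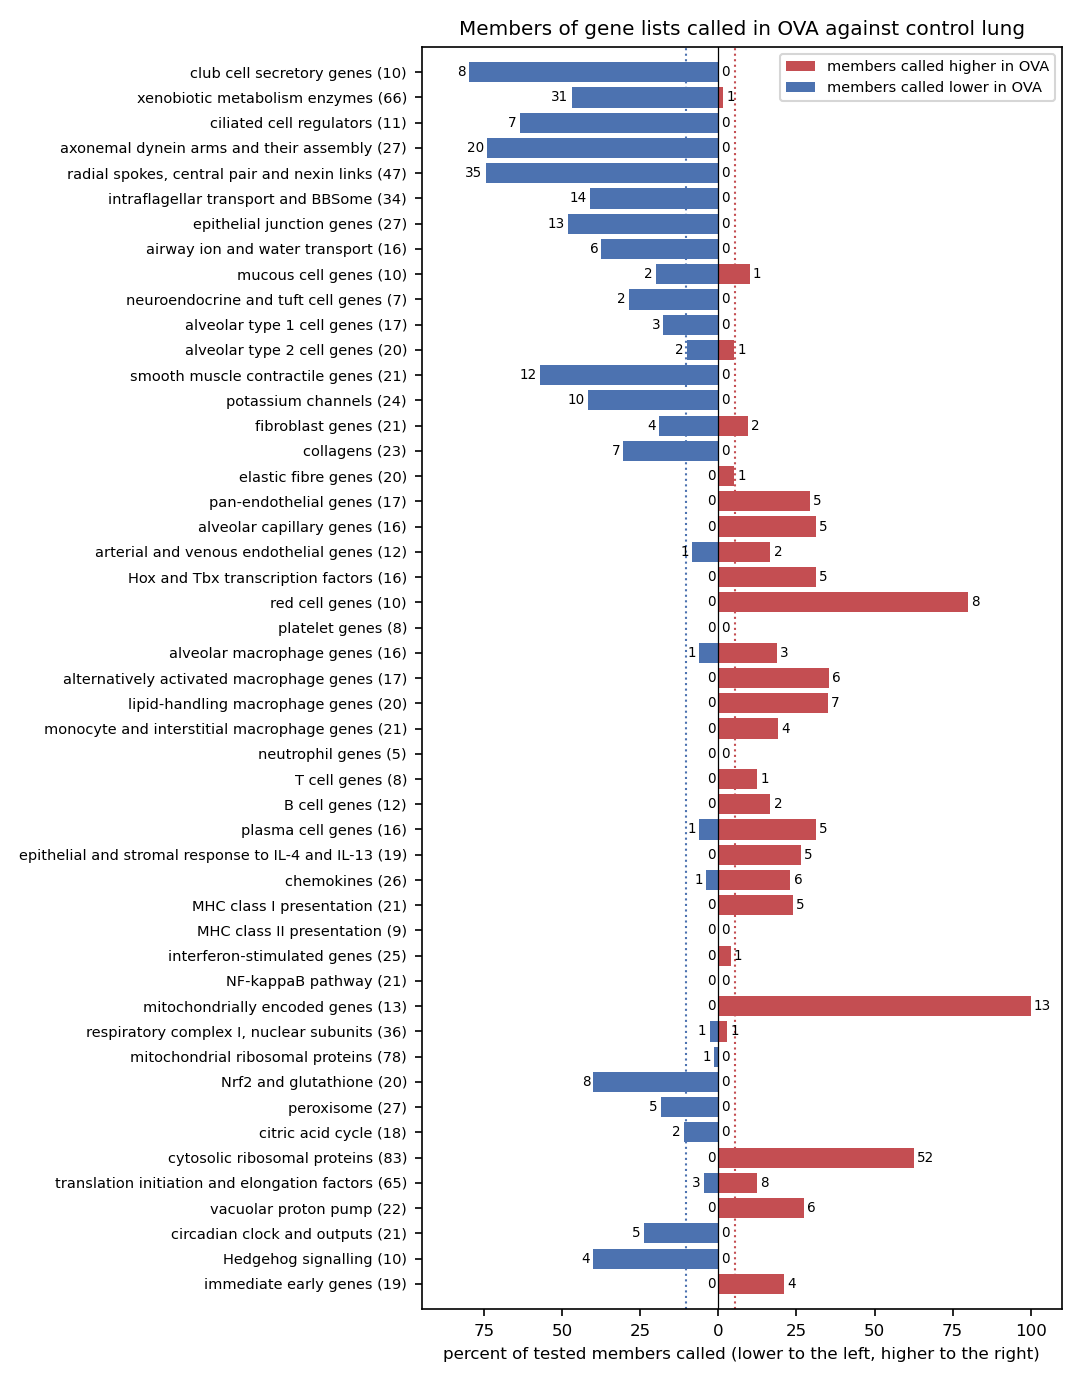
Percent of the tested members of 49 gene lists called higher (right) or lower (left) in OVA than in control lung, with the number of called members at each bar and of tested members beside each name. Dotted lines mark the shares over all genes tested, 5.40% higher and 10.5% lower. Cilium, club cell, xenobiotic and smooth muscle lists extend to the left, and mitochondrially encoded, red cell and ribosomal protein lists to the right.

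Genes of motile cilia fell together. Of 119 tested genes in 4 cilium lists, 76 fell and 0 rose, with a median change of -1.16, and 71 of the 76 were also called lower after quantile normalisation. The falls reached from transcription factors to the axoneme. Foxj1, the master regulator of motile cilia (ENSMUSG00000034227.7, chromosome 11, 116330704 to 116335399), was at 88.0, 204, 116, 97.9 and 56.4 in controls 1 to 5. In OVA 1 to 5 it was at 12.8, 48.1, 48.9, 20.3 and 23.0. Every OVA sample lay below every control, lowest in OVA 1. Foxj1 fell by 1.89 ± 0.42 (SE; limma adjusted p = 0.00821). Gmnc, which starts the multiciliated programme, ranged from 0.149 to 0.853 in OVA and 1.36 to 4.03 in control lungs and fell by 1.32 ± 0.25 (SE; limma adjusted p = 0.00323). Gmnc reached a deposited value of 1 in no OVA sample and entered the test through the group where it is high. In all, 7 of 11 tested regulators fell, with a median of -1.16.

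Promoters of cilium genes often carry an X-box, the binding motif of RFX transcription factors, and the half-site of that motif was searched in the 250 bases before each gene's start (RefSeq, GRCm38.p6). The half-site GTTGCC, on either strand, lay in 26 of the 98 cilium genes with a promoter in the table (26.5%), in 12.9% of the 9460 tested genes with one and in 10.4% of all 32851 promoters. The half-site lay in 16 of 59 cilium genes that fell (27.1%) and in 10 of 39 not called (25.6%). The full X-box by name, with both half-sites, lay in 7 of the 98 and in 0.539% of the tested genes, with 6 of the 59 that fell (10.2%) and 1 of the 39 not called (2.56%). A match describes letters and not binding. The windows around the half-site of 4 cilium genes that fell are shown because they carry the letters the count refers to, 5′ to 3′ with the half-site in capitals.
Traf3ip1 (GRCm38.p6, chr1:91494562-91494621, + strand): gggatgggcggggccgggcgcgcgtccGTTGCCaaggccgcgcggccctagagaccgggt
Cfap74 (GRCm38.p6, chr4:155409047-155409106, + strand): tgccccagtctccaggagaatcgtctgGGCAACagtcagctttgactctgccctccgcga
Dnaic2 (GRCm38.p6, chr11:114727366-114727418, + strand): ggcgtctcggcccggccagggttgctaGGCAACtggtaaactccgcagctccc
Cfap58 (GRCm38.p6, chr19:47937626-47937685, + strand): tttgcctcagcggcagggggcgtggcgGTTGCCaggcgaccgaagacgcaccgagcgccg

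These 4 genes span the parts of a cilium. Traf3ip1 encodes a subunit of intraflagellar transport, which carries cargo along the cilium. It was at 20.1, 23.2, 25.7, 28.3 and 13.2 in controls 1 to 5 and at 4.21, 7.85, 6.10, 4.22 and 3.52 in OVA 1 to 5. The groups were far apart, and Traf3ip1 fell by 1.90 ± 0.23 (SE; limma adjusted p = 3.73e-04). Cfap74 belongs to the central pair apparatus and fell by 1.62 ± 0.27 (SE; limma adjusted p = 0.00182). Dnaic2, an intermediate chain of the outer dynein arm, ranged from 0.237 to 0.727 in OVA and 1.80 to 8.50 in control lungs and fell by 1.54 ± 0.27 (SE; limma adjusted p = 0.00249). No OVA sample of Dnaic2 reached a deposited value of 1, so it entered the test through the group where it is high. Cfap58, a cilia and flagella associated protein, ranged from 0.531 to 2.37 in OVA and 3.90 to 9.71 in control lungs and fell by 1.77 ± 0.36 (SE; limma adjusted p = 0.00497). The fall of Cfap58 was not called with a pseudocount of 0.1.

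Among dynein arms and their assembly factors, which power the beat, 20 of 27 genes fell (median -1.25). Ccdc151, which docks the outer arm, ranged from 1.04 to 4.72 in OVA and 7.83 to 14.8 in control lungs and fell by 2.00 ± 0.31 (SE; limma adjusted p = 0.00141). The heavy chain Dnah3 fell by 1.58 ± 0.25 (SE; limma adjusted p = 0.00141). Radial spokes, central pair and nexin links, which coordinate the beat, had 35 of 47 genes lower (median -1.57). Rsph14, a radial spoke gene, ranged from 0 to 0.537 in OVA and 1.90 to 5.28 in control lungs, and Cfap45, a protein inside the axonemal microtubules, from 0.889 to 3.29 in OVA and 4.69 to 9.35 in control lungs. Neither gene overlapped between the groups. They fell by 1.90 and 1.64 (limma adjusted p = 6.75e-04 and 0.00123). Rsph14 reached a deposited value of 1 in every control and in no OVA sample, so it entered the test through the group where it is high. Intraflagellar transport and the BBSome, which primary cilia of other cells use as well, had 14 of 34 genes lower and a smaller median of -0.69. Its member Ttc8, a BBSome subunit, fell by 1.16 ± 0.21 (SE; limma adjusted p = 0.00296).

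Other genes linked to ciliated cells, outside these lists, fell as well. Nme9, a thioredoxin-domain protein, ranged from 3.98 to 17.1 in OVA and 27.7 to 103 in control lungs and fell by 2.44 ± 0.46 (SE; limma adjusted p = 0.00356). Agr3, a protein disulphide isomerase that ciliated airway cells need for normal beating, ranged from 0 to 9.04 in OVA and 16.4 to 32.4 in control lungs and fell by 2.48 ± 0.57 (SE; limma adjusted p = 0.0100). Tubb4b, a tubulin of the axoneme, fell by 1.01, and Kif19a, a kinesin that limits the length of cilia, by 1.52 (limma adjusted p = 0.00944 and 0.00242). Of 18 tubulins of all cells, 1 rose and 1 fell (median 0.06), and of 17 kinesins, 1 rose and 3 fell (median -0.24). Without the 3 samples with transcripts of other organs, tubulins had 0 higher and 1 lower, and kinesins 2 higher and 3 lower.

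Club cell genes fell along with the ciliated ones. Of 10 club cell secretory genes, 8 fell and 0 rose (median -1.70), and the same number was called lower after quantile normalisation. Cyp2f2, the cytochrome P450 of club cells (ENSMUSG00000052974.8, chromosome 7, 27119909 to 27133660), was at 2245, 1945, 2464, 2369 and 1289 in controls 1 to 5. In OVA 1 to 5 it was at 223, 657, 1388, 418 and 424. OVA 3 lay above control 5, and the other OVA samples lay below all controls. Cyp2f2 fell by 1.96 ± 0.44 (SE; limma adjusted p = 0.00847). Scgb1c1, a secretoglobin, ranged from 1.06 to 14.5 in OVA and 30.0 to 75.6 in control lungs and fell by 2.99 ± 0.68 (SE; limma adjusted p = 0.00912), though not with a pseudocount of 0.1. Scgb1a1, the secretoglobin that defines club cells, ranged from 20090 to 61530 in OVA and 40710 to 180000 in control lungs after scaling, with overlap, and its change of -1.22 ± 0.46 (SE; limma adjusted p = 0.0843) was not called.

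Enzymes that oxidise or conjugate foreign chemicals, many of them abundant in club cells, followed. Of 66 tested, 31 fell and 1 rose (median -0.85). Ephx1, microsomal epoxide hydrolase (ENSMUSG00000038776.13, chromosome 1, 180976210 to 181020904), was at 85.8, 65.0, 84.1, 95.9 and 53.1 in controls 1 to 5 and at 18.8, 24.6, 24.8, 17.9 and 20.7 in OVA 1 to 5. The highest OVA sample lay well below the lowest control, and Ephx1 fell by 1.78 ± 0.19 (SE; limma adjusted p = 2.15e-04). Ces1d, a carboxylesterase, ranged from 51.9 to 102 in OVA and 173 to 342 in control lungs and fell by 1.93 ± 0.26 (SE; limma adjusted p = 5.57e-04). Ugt1a6a, a glucuronosyltransferase, fell by 2.47 (limma adjusted p = 0.00563), a value that is uncertain because the Ugt1a genes share exons. The exception was Fmo1, a flavin monooxygenase, which ranged from 27.9 to 55.9 in OVA and 13.2 to 16.6 in control lungs and rose by 1.25 ± 0.24 (SE; limma adjusted p = 0.00344). It was not called under all 3 scalings and is named after its value was seen.

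The antioxidant genes under Nrf2 and the glutathione genes, some of which are also xenobiotic enzymes, had 8 of 20 members lower and 0 higher (median -0.70). Nqo1, a quinone reductase and a standard Nrf2 target, ranged from 1.42 to 3.17 in OVA and 5.31 to 11.2 in control lungs and fell by 1.46 ± 0.26 (SE; limma adjusted p = 0.00246). Pon1, a paraoxonase, had the largest fall among genes whose groups did not overlap. It was at 51.8, 41.2, 42.7, 58.6 and 27.8 in controls 1 to 5 and at 1.80, 3.56, 3.03, 3.62 and 5.98 in OVA 1 to 5. The highest OVA sample was far below the lowest control, and Pon1 fell by 3.32 ± 0.28 (SE; limma adjusted p = 4.37e-05). Cat, catalase, fell by 1.21 ± 0.16 (SE; limma adjusted p = 5.57e-04). The peroxisome list, of which Cat is a member, had 5 of 27 genes lower, and Pex11a, which controls peroxisome number, fell by 2.07 ± 0.42 (SE; limma adjusted p = 0.00499).

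Epithelial genes of barrier and transport fell in part. Junction genes had 13 of 27 members lower (median -0.95), and ion and water transport genes 6 of 16 (median -0.74), with 0 higher in both. Cgn, cingulin of the tight junction, ranged from 4.05 to 6.4 in OVA and 11.2 to 16.2 in control lungs and fell by 1.29 ± 0.19 (SE; limma adjusted p = 0.00103). Esrp2, a splicing factor of epithelia, fell by 1.45 ± 0.26 (SE; limma adjusted p = 0.00269). The water channels Aqp5 and Aqp4 fell by 1.69 and 1.95 (limma adjusted p = 8.16e-04 and 0.00179). Cxcl17, a chemokine of mucosal epithelium (ENSMUSG00000060188.6, chromosome 7, 25400053 to 25412886), was at 112, 82.7, 187, 127 and 67.2 in controls 1 to 5 and at 14.3, 31.5, 20.0, 7.28 and 39.7 in OVA 1 to 5. The groups did not overlap, and Cxcl17 fell by 2.42 ± 0.41 (SE; limma adjusted p = 0.00202). Slpi, an inhibitor of neutrophil elastase made by the same epithelium, went the other way. It ranged from 81.7 to 232 in OVA and 11.5 to 74.7 in control lungs and rose by 2.57 ± 0.48 (SE; limma adjusted p = 0.00326).

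Rarer airway cell types gave mixed values. Of 10 tested mucous cell genes, 1 rose and 2 fell (median 0.05), against 3 higher and 2 lower without the 3 samples with transcripts of other organs. The gene that rose was Clca1, a secreted protein of goblet cells. It was at 5.98, 15.7, 36.2, 0.387 and 1.33 in controls 1 to 5 and at 23.1, 170.5, 191, 17.7 and 202 in OVA 1 to 5. Controls 2 and 3 were high among controls, OVA 1 and 4 were low among OVA samples, and the groups overlapped. Clca1 rose by 3.54 ± 0.94 (SE; limma adjusted p = 0.020), but its call was lost without control 4, or without OVA 5 (limma adjusted p = 0.0565 to 0.0578). The change was 4.39 (limma adjusted p = 0.0117) without the 3 samples with transcripts of other organs. Muc5ac, the inducible mucin, was at 0.154 to 1.11 in OVA and 0.481 to 2.47 in control lungs and did not enter the test. Galnt12, which starts mucin-type glycosylation, fell by 0.79 ± 0.20 (SE; limma adjusted p = 0.0175), a call lost without control 3 (limma adjusted p = 0.0534).

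Of 5 tested basal cell genes, 0 rose and 1 fell (median -0.41). The gene that fell was the integrin Itgb4, by 1.23 ± 0.21 (SE; limma adjusted p = 0.00214). Among neuroendocrine and tuft cell genes, 2 of 7 fell and 0 rose, and 5 fell without the 3 samples with transcripts of other organs. Calca, the precursor of the neuropeptide CGRP, ranged from 0.328 to 5.44 in OVA and 5.25 to 11.7 in control lungs with overlap and fell by 1.68 ± 0.44 (SE; limma adjusted p = 0.0180), a call lost without control 3, or without OVA 5 (limma adjusted p = 0.0507 to 0.0512). In the retinoic acid pathway, 4 of 15 genes fell and 1 rose. Rdh10, which oxidises retinol, fell by 1.26 and Aldh1a7, an aldehyde dehydrogenase, by 1.56 (limma adjusted p = 0.00397 and 0.0101).

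Cartilage genes, which mark the wall of large airways, had a summed level of 42.3 to 72 in control and 15 to 44.5 in OVA lungs, with overlap. None of the 4 tested cartilage genes was called by limma (1 at an unadjusted limma p under 0.05), and the part of the sampled region in the airway results was not tested.

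Most alveolar epithelial genes were not called. Of 17 type 1 cell genes, 0 rose and 3 fell (median 0.12), and of 20 type 2 cell genes, 1 rose and 2 fell (median 0.06). Sftpc, the surfactant protein that defines type 2 cells, was at 2740, 1512, 1647, 2033 and 3215 in controls 1 to 5 and at 7073, 4605, 1716, 1873 and 1402 in OVA 1 to 5. OVA 1 and 2 lay above all controls and OVA 3 to 5 within or below their range. The change of 0.34 ± 0.41 (SE; limma adjusted p = 0.635) was not called and was at -0.54 as deposited and -0.49 after quantile normalisation. Among type 1 genes, Aqp5 (above) and Sema3e, a secreted semaphorin, fell, Sema3e by 1.13 ± 0.26 (SE; limma adjusted p = 0.0101). Ctsh, cathepsin H, a protease of type 2 cells that processes surfactant protein, ranged from 3.56 to 15.1 in OVA and 20.4 to 32.6 in control lungs and fell by 1.28 ± 0.33 (SE; limma adjusted p = 0.0172).

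The type 2 gene that rose was Il33, an alarmin cytokine released by damaged cells that activates innate lymphoid cells. It was at 5.30, 2.60, 4.94, 8.41 and 11.4 in controls 1 to 5 and at 26.2, 14.6, 13.2, 14.7 and 17.2 in OVA 1 to 5. All OVA samples were above all controls. Il33 rose by 1.35 ± 0.29 (SE; limma adjusted p = 0.00662), and it was not called under all 3 scalings. Tslp, another epithelial alarmin, ranged from 2.18 to 3.36 in OVA and 0 to 3.85 in control lungs, and its change of 0.48 ± 0.45 (SE; limma adjusted p = 0.533) was not called. Genes of transitional alveolar cells, which appear during repair, had 3 higher and 3 lower of 13. Krt8, the keratin that defines them, fell by 1.32 ± 0.20 (SE; limma adjusted p = 0.00133), and Lgals3, galectin 3, which macrophages make as well, rose by 2.27 ± 0.31 (SE; limma adjusted p = 7.58e-04).

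Smooth muscle genes fell. Of 21 contractile genes, 12 fell and 0 rose (median -0.86), 11 of them also after quantile normalisation. Acta2, smooth muscle actin (ENSMUSG00000035783.8, chromosome 19, 34241090 to 34255336), was at 149, 122, 147, 178 and 135 in controls 1 to 5. In OVA 1 to 5 it was at 22.3, 17.9, 32.2, 40.2 and 33.1. The groups were far apart and both were tight. Acta2 fell by 2.33 ± 0.22 (SE; limma adjusted p = 5.65e-05). Myh11, smooth muscle myosin, ranged from 3.56 to 8.30 in OVA and 23.8 to 39.1 in control lungs and fell by 2.12 ± 0.24 (SE; limma adjusted p = 3.09e-04). Actg2, the enteric smooth muscle actin, and Cnn1, calponin, fell by 2.46 and 2.57 (limma adjusted p = 5.57e-04 and 0.0115), Cnn1 not with a pseudocount of 0.1.

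Of 11 receptors that set the tone of airway and vessel muscle, 3 fell and 0 rose. Cckar, a cholecystokinin receptor, was at 47.7, 41.0, 49.3, 49.8 and 34.9 in controls 1 to 5 and at 4.31, 13.8, 1.05, 5.46 and 9.17 in OVA 1 to 5. No OVA sample reached the control range, and Cckar fell by 2.82 ± 0.47 (SE; limma adjusted p = 0.00184). Chrm2, a muscarinic acetylcholine receptor, ranged from 0.252 to 0.840 in OVA and 2.72 to 3.93 in control lungs and fell by 1.53 ± 0.23 (SE; limma adjusted p = 0.00113). Its deposited value was at least 1 in every control and in no OVA sample, so it entered the test through the group where it is high. Among potassium channel genes of all tissues, 10 of 24 fell and 0 rose. The channel subunit Kcne4 fell by 1.16 and the channel-interacting protein Kcnip4 by 0.93 (limma adjusted p = 0.00211 and 0.00397).

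Heart muscle genes moved in the same direction, as 3 of 12 fell. Actc1, cardiac actin, ranged from 1.87 to 9.24 in OVA and 22.2 to 35.1 in control lungs and fell by 2.32 ± 0.62 (SE; limma adjusted p = 0.0195), and Tnnt2, cardiac troponin T, from 0.543 to 3.88 in OVA and 5.63 to 8.76 in control lungs and fell by 1.54 ± 0.28 (SE; limma adjusted p = 0.00300). The summed level of 16 cardiac genes was 63.6 to 179 in control and 19.2 to 105 in OVA lungs, with overlap. The mouse pulmonary vein carries heart muscle, and the part of attached vessels in the muscle results was not tested.

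Fibroblast genes went in both directions, with 2 higher and 4 lower of 21 (median -0.16), near the ratio over all genes. Serpinf1, the secreted protein PEDF of fibroblasts (ENSMUSG00000000753.15, chromosome 11, 75409769 to 75422701), was at 16.8, 20.6, 23.1, 18.1 and 18.4 in controls 1 to 5 and at 2.48, 3.38, 3.45, 5.16 and 3.84 in OVA 1 to 5. Both groups were narrow and far apart, and Serpinf1 fell by 2.15 ± 0.19 (SE; limma adjusted p = 4.37e-05). Pi16, a marker of adventitial fibroblasts, ranged from 1.49 to 2.64 in OVA and 6.56 to 11.2 in control lungs and fell by 1.82 ± 0.33 (SE; limma adjusted p = 0.00301). Collagens had 7 of 23 genes lower and 0 higher (median -0.52). Col1a2, a chain of fibrillar collagen, fell by 1.35 ± 0.23 (SE; limma adjusted p = 0.00191), Col23a1, a transmembrane collagen, by 1.58, and Mmp2, a gelatinase, by 0.92 (limma adjusted p = 0.00265 and 0.0146). Elastic fibre genes had 1 of 20 higher and 0 lower (median -0.33), but 1 higher and 4 lower without the 3 samples with transcripts of other organs. The gene that rose, Mfap4, a microfibril protein, rose by 1.13 ± 0.31 (SE; limma adjusted p = 0.0216), a call lost without control 3, or without OVA 1 (limma adjusted p = 0.0504 to 0.0541).

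Pericytes, the mural cells of capillaries, had 3 of 11 genes higher and 0 lower, with 6 of the 11 below 0 (median -0.08 scaled, -0.51 as deposited). Higd1b, which marks them in lung, ranged from 10.5 to 22.0 in OVA and 4.19 to 7.48 in control lungs and rose by 1.35 ± 0.24 (SE; limma adjusted p = 0.00248). Cox4i2, a lung isoform of a respiratory subunit found in pericytes, ranged from 20.0 to 41.3 in OVA and 6.4 to 19.7 in control lungs and rose by 1.16 ± 0.32 (SE; limma adjusted p = 0.0219), a call lost without control 3, or without OVA 1 (limma adjusted p = 0.0549 to 0.0635). Neither was called under all 3 scalings.

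Part of the endothelial genes rose after scaling. Of 17 pan-endothelial genes, 5 rose and 0 fell (median 0.76 scaled, -0.03 as deposited), and of 16 capillary genes, 5 rose and 0 fell (median 0.65 scaled, -0.03 as deposited). The median of all genes as deposited was -0.73. The transcription factor Erg, which maintains endothelial identity (ENSMUSG00000040732.18, chromosome 16, 95359169 to 95586593), was at 9.73, 4.67, 6.22, 7.90 and 9.19 in controls 1 to 5 and at 18.2, 21.8, 25.5, 34.7 and 20.6 in OVA 1 to 5. All OVA samples exceeded all controls, OVA 4 the most. Erg rose by 1.56 ± 0.22 (SE; limma adjusted p = 8.16e-04), also under all 3 scalings.

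Prx, periaxin, expressed in lung capillary endothelium (ENSMUSG00000053198.13, chromosome 7, 27499324 to 27520214), was at 4.87, 7.38, 3.52, 5.68 and 5.05 in controls 1 to 5 and at 31.9, 32.5, 10.7, 20.1 and 18.0 in OVA 1 to 5. The groups did not overlap, with OVA 1 and 2 the highest. Prx rose by 1.83 ± 0.28 (SE; limma adjusted p = 0.00136) and was called under all 3 scalings. Tmem100, a membrane protein of alveolar capillaries downstream of BMP signals, ranged from 91.4 to 149.8 in OVA and 26.0 to 54.0 in control lungs and rose by 1.58 ± 0.25 (SE; limma adjusted p = 0.00158). The remaining called members of both lists were Tal1 and, named after their values were seen, Eng, Egfl7, Sox18, Tbx2, Car4 and Plvap, with rises of 0.73 (Tbx2) to 1.46 (Sox18). Tal1, a transcription factor shared with blood cells, ranged from 2.27 to 4.92 in OVA and 1.06 to 1.99 in control lungs and was called without each of the 10 samples in turn, as were Erg, Prx and Tmem100. Each of the other calls was lost without 1 of several samples. Eng, a coreceptor of BMP9, was not called without control 1, 2, 3 or 4, or without OVA 1, 2, 4 or 5 (limma adjusted p = 0.0539 to 0.102). Egfl7, a secreted endothelial factor, was not called without control 3, 4 or 5, or without OVA 1, 2, 4 or 5 (limma adjusted p = 0.0709 to 0.0891). Sox18, an endothelial transcription factor, was not called without control 3 or 4, or without OVA 4 or 5 (limma adjusted p = 0.0698 to 0.0827). Tbx2 was not called without control 1, 2, 3 or 4, or without OVA 1, 2, 4 or 5 (limma adjusted p = 0.0550 to 0.0832) and was at -0.09 as deposited. Car4, a carbonic anhydrase of capillaries, was not called without control 1, 2, 3 or 4, or without OVA 1, 2 or 3 (limma adjusted p = 0.0529 to 0.0988). Plvap, which forms the diaphragms of endothelial fenestrae, was not called without control 2, 3 or 4, or without OVA 1, 2, 4 or 5 (limma adjusted p = 0.0645 to 0.115) and was at 0.84 (limma adjusted p = 0.109) without the 3 samples with transcripts of other organs. Pecam1, a general endothelial marker, had a change of 0.58 ± 0.27 (SE; limma adjusted p = 0.163), or -0.25 as deposited, and was not called.

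Larger vessels differed among themselves. Hey1, a Notch target of arterial endothelium, ranged from 16.7 to 22.9 in OVA and 6.48 to 13.8 in control lungs and rose by 1.13 ± 0.21 (SE; limma adjusted p = 0.00294). Bmx, a kinase of arterial endothelium, ranged from 1.1 to 7.31 in OVA and 7.04 to 12.1 in control lungs with overlap and fell by 1.62 ± 0.34 (SE; limma adjusted p = 0.00643). None of 6 lymphatic genes was called by limma (2 at an unadjusted limma p under 0.05, median -0.94), while 3 fell without the 3 samples with transcripts of other organs. Epas1, the hypoxia-inducible factor of endothelium, was at 154, 152, 166, 151 and 153 in controls 1 to 5 and at 279, 318, 304, 369.9 and 488 in OVA 1 to 5, above the control range throughout, and rose by 1.15 ± 0.28 (SE; limma adjusted p = 0.0130). Hspa12b, an endothelial relative of heat shock proteins, rose by 1.21 ± 0.19 (SE; limma adjusted p = 0.00147). Of Hox and Tbx factors, which pattern the lung mesenchyme and endothelium, 5 of 16 rose and 0 fell (median 0.45 scaled, -0.16 as deposited). Among them were Hoxb5, with a rise of 1.21, and Tbx3, with 1.11 (limma adjusted p = 8.16e-04 and 0.00172).

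Red cell genes rose. Of 10 tested, 8 rose and 0 fell (median 1.54 scaled, 0.94 as deposited). Hbb-bs, a beta globin (ENSMUSG00000052305.6, chromosome 7, 103826534 to 103828096), was at 579.6, 867, 1118, 535 and 439.9 in controls 1 to 5. In OVA 1 to 5 it was at 2204, 3282, 3038, 3928 and 3228. The lowest OVA sample was well above the highest control. Hbb-bs rose by 2.21 ± 0.29 (SE; limma adjusted p = 5.57e-04) and Hba-a1, an alpha globin, by 2.19 ± 0.31 (SE; limma adjusted p = 8.15e-04). Each globin has a near-identical copy, so the split between copies is uncertain. None of 8 platelet genes was called by limma (1 at an unadjusted limma p under 0.05). The part of blood left in the vessels in the leukocyte and endothelial results was not tested.

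Macrophage genes held several of the largest rises. Of 17 alternative-activation genes of macrophages, 6 rose and 0 fell (median 0.52 scaled, -0.33 as deposited). Mmp12, macrophage elastase, was at 0.488, 3.14, 0.379, 0.299 and 0.590 in controls 1 to 5 and at 206, 76.5, 26.4, 22.0 and 17.7 in OVA 1 to 5, and rose by 4.67 ± 0.69 (SE; limma adjusted p = 0.00103). Arg1, arginase 1, was at 0.294, 6.22, 0.230, 0.340 and 0.592 in controls 1 to 5 and at 55.9, 16, 28.6, 14.5 and 18.0 in OVA 1 to 5. The high control was control 2. Arg1 rose by 3.68 ± 0.59 (SE; limma adjusted p = 0.00147), and its change was 4.32 (limma adjusted p = 4.15e-04) without the 3 samples with transcripts of other organs.

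Chil3, a chitinase-like protein of macrophages (ENSMUSG00000040809.10, chromosome 3, 106147554 to 106167564), was at 24.1, 39.1, 13.7, 15.1 and 28.0 in controls 1 to 5 and at 1377, 743, 330.2, 193 and 246 in OVA 1 to 5. It rose by 4.23 ± 0.53 (SE; limma adjusted p = 4.42e-04), with reads that may be shared with its near-identical relative Chil4. OVA 1 was the highest sample for Mmp12, Arg1 and Chil3. Retnla, a resistin-like protein of type 2 responses, ranged from 1975 to 14660 in OVA and 351 to 3172 in control lungs with overlap, and its change of 1.74 ± 0.64 (SE; limma adjusted p = 0.0798) was not called. It was 2.33 (limma adjusted p = 0.0312) without the 3 samples with transcripts of other organs.

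**Figure D3:**
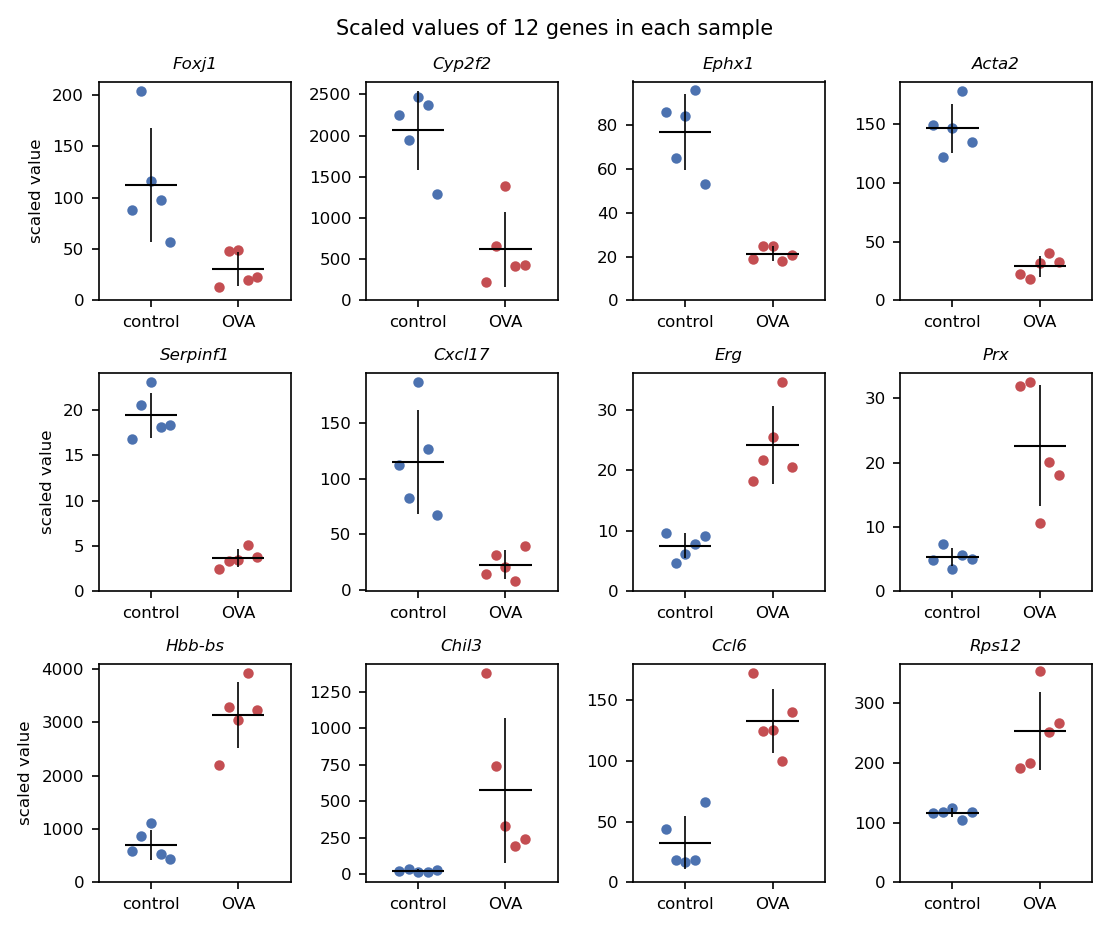
Scaled values of 12 genes in each control and OVA sample (points), with mean and SD (lines). Foxj1, Ephx1, Acta2, Serpinf1 and Cxcl17 were lower in every OVA than in every control sample, Cyp2f2 overlapped in 1 sample, and the remaining 6 genes were higher in every OVA sample.

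Of 20 genes of macrophages that take up lipid and debris, 7 rose and 0 fell (median 0.38 scaled, -0.35 as deposited). Gpnmb, a lysosomal membrane glycoprotein, ranged from 3.21 to 68.9 in OVA and 0.361 to 2.89 in control lungs and rose by 2.64 ± 0.68 (SE; limma adjusted p = 0.0175). Spp1, osteopontin, ranged from 16.1 to 192 in OVA and 5.55 to 12.7 in control lungs and rose by 2.19 ± 0.56 (SE; limma adjusted p = 0.0164). Fabp5, a fatty acid binding protein, ranged from 16.6 to 39.7 in OVA and 3.29 to 8.27 in control lungs and rose by 1.97 ± 0.29 (SE; limma adjusted p = 9.65e-04). OVA 1 was the highest sample for each of these 3 genes, and the mean of the list over the control mean was 1.82 there and 0.31 in OVA 3 and OVA 5 on the log2 scale.

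The proton pump that acidifies lysosomes had 6 of 22 subunit genes higher and 0 lower. Its macrophage and osteoclast isoform Atp6v0d2 was at 8.45, 3.41, 5.23, 6.11 and 11.1 in controls 1 to 5 and at 112, 42.8, 52.5, 39.9 and 69.7 in OVA 1 to 5. All OVA samples were far above all controls, and Atp6v0d2 rose by 3.01 ± 0.32 (SE; limma adjusted p = 1.88e-04). The general subunit Atp6v1a rose by 0.68 ± 0.16 (SE; limma adjusted p = 0.0117) after scaling but was at -0.14 as deposited. The other lysosomal genes had 1 higher and 2 lower of 41.

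Monocyte and interstitial macrophage genes had 4 of 21 higher and 0 lower, with a median of -0.07. Ly6c2, a surface protein of inflammatory monocytes, rose by 1.34 ± 0.36 (SE; limma adjusted p = 0.0208), a call lost without control 1, or without OVA 1 (limma adjusted p = 0.0528 to 0.0538). Of 13 dendritic cell genes, 1 rose and 2 fell. Xcr1, the receptor of cross-presenting dendritic cells, ranged from 0.125 to 0.414 in OVA and 0.817 to 1.36 in control lungs and fell by 0.71 ± 0.16 (SE; limma adjusted p = 0.00992). Xcr1 reached a deposited value of 1 in no OVA sample and entered the test through the group where it is high. Fscn1, fascin of migrating dendritic cells, rose by 1.1 ± 0.31 (SE; limma adjusted p = 0.0257), but the call was lost without control 3 or 4, or without OVA 4 or 5 (limma adjusted p = 0.0582 to 0.0674).

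Genes that mark granulocytes gave few calls. Of 8 eosinophil genes in the table, 3 were tested, 1 rose and 0 fell. Rnase2a, an eosinophil-associated ribonuclease, was at 0.110, 3.08, 0.463, 0.133 and 0.296 in controls 1 to 5 and at 12.3, 17.5, 33.9, 7.24 and 18.9 in OVA 1 to 5. No control reached the OVA range, and Rnase2a rose by 3.43 ± 0.49 (SE; limma adjusted p = 8.16e-04), with a change of 4.03 (limma adjusted p = 4.93e-04) without the 3 samples with transcripts of other organs. Ear1, a relative of the same family named after its value was seen, ranged from 0 to 3.93 in OVA and 0 to 21.7 in control lungs, and its change of -1.58 ± 0.90 (SE; limma adjusted p = 0.270) was not called. It was -2.36 (limma adjusted p = 0.0246) without the 3 samples with transcripts of other organs. The family has close relatives, so reads may be shared. Prg2, the major basic protein of eosinophils, was listed at 0 in all but 1 sample of each group and did not enter the test. None of 5 neutrophil genes was called by limma (1 at an unadjusted limma p under 0.05). S100a9, a neutrophil protein, ranged from 11.6 to 27.8 in OVA and 3.86 to 147 in control lungs, and its change of -0.56 ± 0.97 (SE; limma adjusted p = 0.759) was not called.

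Chemokines had 6 higher and 1 lower of 26 (median 0.02), the lower one being Cxcl17. Ccl6, a macrophage chemokine (ENSMUSG00000018927.3, chromosome 11, 83587882 to 83593087), was at 43.6, 18.4, 16.4, 18.6 and 66.1 in controls 1 to 5 and at 172, 125, 125, 99.99 and 140.0 in OVA 1 to 5. The groups did not overlap, and Ccl6 rose by 2.19 ± 0.36 (SE; limma adjusted p = 0.00181). Ccl8, which attracts T helper 2 cells in mouse skin, ranged from 58.6 to 118 in OVA and 8.10 to 67.0 in control lungs with overlap and rose by 1.93 ± 0.43 (SE; limma adjusted p = 0.00809). The eotaxins, which attract eosinophils, were Ccl11, with 8.25 to 16 in OVA against 3.01 to 7.49 in control lungs and a rise by 1.21 ± 0.29 (SE; limma adjusted p = 0.0119), and Ccl24, with 1.6 to 2.56 in OVA against 0 to 0.897 in control lungs and a rise by 1.09 ± 0.34 (SE; limma adjusted p = 0.0411). The call of Ccl24 was lost in each of the 10 fits without 1 sample (limma adjusted p = 0.0553 to 0.0947) and with a pseudocount of 0.1.

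The list of genes that epithelium and stroma raise under IL-4 and IL-13 had 5 of 19 members higher and 0 lower (median 1.05 scaled, 0.30 as deposited). Its called members include Ccl8 and Arg1, the latter given above with the macrophage genes, so the count does not describe epithelium and stroma alone. The cytokine genes Il4, Il5, Il13 and Il25 were not analysed here. Interleukin genes had 2 higher and 0 lower of 9, and interleukin receptor genes 2 higher and 5 lower of 20 (median -0.14). Il1rn, the IL-1 receptor antagonist, ranged from 2.04 to 15.3 in OVA and 0 to 0.962 in control lungs and rose by 2.19 ± 0.34 (SE; limma adjusted p = 0.00137), and Il1a, an IL-1 cytokine, rose by 1.09 ± 0.26 (SE; limma adjusted p = 0.0110). Il1rap, the accessory chain of the IL-1 and IL-33 receptors, ranged from 0.180 to 0.592 in OVA and 0.937 to 1.42 in control lungs and fell by 0.69 ± 0.12 (SE; limma adjusted p = 0.00269). Its deposited value reached 1 only in the controls, so it entered the test only through the group where it is high. Its OVA values are also limited by depth. Hpgd, which degrades prostaglandins, was at 47.7, 70.2, 61.3, 75.4 and 82.4 in controls 1 to 5 and at 229.5, 337, 160.5, 182 and 336 in OVA 1 to 5. All OVA samples lay above all controls, and Hpgd rose by 1.83 ± 0.30 (SE; limma adjusted p = 0.00167). Pla2g4a, the phospholipase that frees arachidonic acid for prostaglandins and leukotrienes, fell by 1.03 ± 0.22 (SE; limma adjusted p = 0.00640).

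Some plasma cell and B cell genes rose. Of 16 plasma cell genes, 5 rose and 1 fell (median 0.82 scaled, 0.27 as deposited). Jchain, which joins IgA and IgM into polymers, was at 2.70, 46.7, 255, 8.16 and 19.5 in controls 1 to 5 and at 1139, 842, 1076, 319 and 141 in OVA 1 to 5. Control 3 lay above OVA 5, and the other samples were apart. Jchain rose by 4.48 ± 0.89 (SE; limma adjusted p = 0.00447). Tnfrsf13b, the receptor TACI of B lineage cells, ranged from 3.13 to 5.76 in OVA and 0 to 2.15 in control lungs and rose by 1.45 ± 0.29 (SE; limma adjusted p = 0.00470). The gene that fell was Sdc1, syndecan 1, which epithelium also makes, with a fall of 1.01 (limma adjusted p = 0.0256), a call lost without control 1, 3 or 4, or without OVA 4 or 5 (limma adjusted p = 0.0525 to 0.0692).

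Of 12 B cell genes, 2 rose and 0 fell (median 0.72 scaled, 0.30 as deposited). Pax5, the transcription factor of B cells, ranged from 1.16 to 2.21 in OVA and 0.118 to 0.939 in control lungs and rose by 0.90 ± 0.21 (SE; limma adjusted p = 0.00989). Cd79a, part of the B cell receptor, ranged from 5.92 to 15.3 in OVA and 0.640 to 8.81 in control lungs and rose by 1.58 ± 0.46 (SE; limma adjusted p = 0.0292), a call lost without control 1, 2 or 4, or without OVA 1, 2 or 3 (limma adjusted p = 0.050 to 0.0808). Of 8 T cell genes only Tcf7, a transcription factor of naive and memory T cells, was called, with 3.92 to 7.10 in OVA against 1.49 to 3.31 in control lungs and a rise by 0.94 ± 0.21 (SE; limma adjusted p = 0.00807).

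The 2 classes of antigen presentation genes differed. MHC class II had 0 of 9 genes called by limma (1 at an unadjusted limma p under 0.05, median 0.16). MHC class I had 5 of 21 higher and 0 lower (median 0.32 scaled, -0.41 as deposited). The non-classical H2-T22 rose by 0.88 ± 0.20 (SE; limma adjusted p = 0.00816). The immunoproteasome subunits Psmb9 and Psmb8 rose by 0.96 and 0.85 (limma adjusted p = 0.0305 and 0.0449). The call of Psmb9 was lost without control 1, 3 or 4, or without OVA 1, 2 or 3 (limma adjusted p = 0.0615 to 0.0832). That of Psmb8 was lost without control 1, 2, 3, 4 or 5, or without OVA 1, 3, 4 or 5 (limma adjusted p = 0.0567 to 0.0996), and its change was -0.0017 as deposited. H2 genes are near copies of each other, so their reads may be shared.

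The NF-kappaB pathway had 0 of 21 genes called by limma (6 at an unadjusted limma p under 0.05), but 2 higher and 1 lower without the 3 samples with transcripts of other organs. Nfkbia, its inhibitor and target, ranged from 106 to 184 in OVA and 61.6 to 98.7 in control lungs without overlap, and its change of 0.75 ± 0.30 (SE; limma adjusted p = 0.105) was not called. It was 0.86 (limma adjusted p = 0.0110) without the 3 samples with transcripts of other organs and was then called. Interferon-stimulated genes had 1 of 25 higher, Rsad2, an antiviral enzyme, by 0.94 (limma adjusted p = 0.0386). That call was lost without control 1, 2 or 4, or without OVA 1, 2, 4 or 5 (limma adjusted p = 0.050 to 0.101). The complement list had 1 higher and 1 lower of 23, and 1 higher and 6 lower without the 3 samples with transcripts of other organs. The inhibitor Cd55 fell by 1.40 ± 0.25 (SE; limma adjusted p = 0.00265). C3ar1, a receptor of complement fragment C3a, ranged from 1.28 to 9.05 in OVA and 0.390 to 1.49 in control lungs and rose by 1.04 ± 0.33 (SE; limma adjusted p = 0.0438), a call lost without control 1, 3, 4 or 5, or without OVA 1, 2 or 3 (limma adjusted p = 0.0557 to 0.111) and with a pseudocount of 0.1.

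Genes of cytosolic ribosomal proteins rose after scaling. Of 83 tested, 52 rose and 0 fell, but the median was 0.79 scaled, 0.44 after quantile normalisation and -0.09 as deposited, and 0 were called higher under all 3 scalings. Rps12, a protein of the small subunit (ENSMUSG00000061983.7, chromosome 10, 23785183 to 23787275), was at 116, 118, 125, 104 and 118 in controls 1 to 5 and at 191, 199, 353, 251 and 267 in OVA 1 to 5. The control values were nearly equal and all OVA values were higher, most in OVA 3. Rps12 rose by 1.08 ± 0.20 (SE; limma adjusted p = 0.00343) and Rpl22, of the large subunit, by 0.96 ± 0.19 (SE; limma adjusted p = 0.00414).

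The ribosomal protein share of the sum without mitochondrially encoded genes was 6.99%, 5.28%, 7.29%, 5.44% and 7.32% in controls 1 to 5. In OVA 1 to 5 it was 10.1%, 9.15%, 14.1%, 14.5% and 16.2%. OVA 3 to 5, which had the largest mitochondrial shares, also had the largest ribosomal shares. Ribosomal protein genes have many processed copies in the genome, so single values are uncertain. Translation factors had 8 of 65 higher and 3 lower, and Eif3e, an initiation factor subunit, rose by 0.84 ± 0.17 (SE; limma adjusted p = 0.00502) after scaling but was at -0.0017 as deposited.

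The 13 mitochondrially encoded genes all rose after scaling (median 2.41, and 1.53 as deposited), but after quantile normalisation the median was 0.25, 4 were called and mt-Co1 was at -0.05. mt-Co2, a subunit of cytochrome oxidase, was at 7085, 17980, 7922, 6653 and 8086 in controls 1 to 5. Its level in OVA 1 to 5 was 23130, 31350, 94140, 111200 and 100600, again highest in OVA 3 to 5. mt-Co2 rose by 2.76 ± 0.48 (SE; limma adjusted p = 0.00242). mt-Nd3, mt-Co3, mt-Cytb and mt-Co1 rose by 2.72, 2.71, 2.53 and 2.48 (limma adjusted p = 0.00291, 0.00376, 0.00279 and 0.00265). Nuclear copies of mitochondrial sequence may share reads with them.

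Few nuclear partners of these genes were called. Of 82 nuclear genes of the respiratory complexes and ATP synthase, 3 rose and 1 fell (median 0.07), and of 78 mitochondrial ribosomal protein genes, 0 rose and 1 fell (median -0.02). The genes that rose were Cox7a2l, a supercomplex assembly factor, by 1.23, Cox4i2 and Ndufa6, a complex I subunit, by 0.62 (limma adjusted p = 0.00181 for Cox7a2l and 0.0459 for Ndufa6). Ndufa6 was at -0.26 as deposited and its call was lost without control 1, 2, 3, 4 or 5, or without OVA 2, 3, 4 or 5 (limma adjusted p = 0.0529 to 0.106). Its change was 0.63 (limma adjusted p = 0.0530) without the 3 samples with transcripts of other organs. Ndufc2, also of complex I, fell by 0.70 (limma adjusted p = 0.0289), and that call was lost without control 1, 2, 3 or 4, or without OVA 4 or 5 (limma adjusted p = 0.0555 to 0.0757). Its change was -0.54 (limma adjusted p = 0.0761) without the 3 samples with transcripts of other organs. Mrpl39, the mitochondrial ribosomal gene that fell, did so by 0.74 (limma adjusted p = 0.0290), a call lost without control 1, 3 or 4, or without OVA 1, 4 or 5 (limma adjusted p = 0.0583 to 0.0826).

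**Figure D4:**
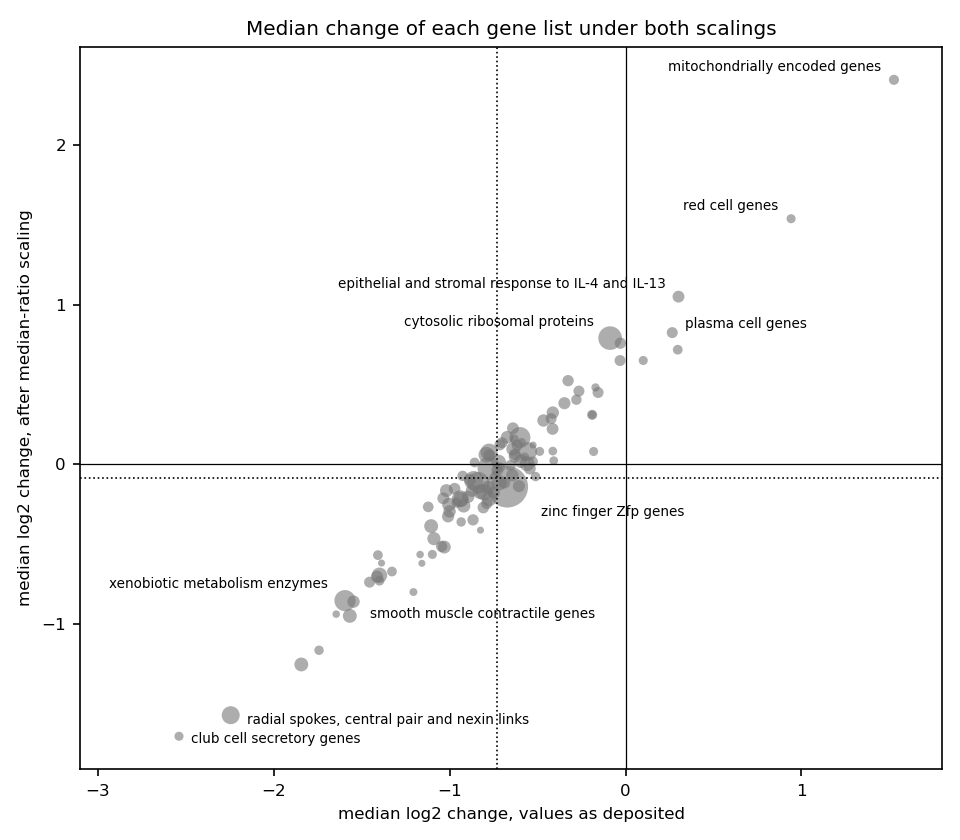
Median log2 change of each gene list with at least 5 tested members, in values as deposited (horizontal) and after median-ratio scaling (vertical), with point area growing with the number of tested members. Dotted lines mark the median of all genes, -0.73 and -0.09. Cytosolic ribosomal proteins were above 0 only after scaling, and the cilium, club cell and xenobiotic lists at the lower left were below 0 under both.

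Lists of intermediary metabolism had few called genes. Idh2, mitochondrial isocitrate dehydrogenase, ranged from 15.4 to 23.7 in OVA and 31.9 to 62.0 in control lungs and fell by 1.05 ± 0.20 (SE; limma adjusted p = 0.00323). Ldhb, a lactate dehydrogenase subunit, ranged from 50.0 to 112 in OVA and 147 to 228 in control lungs and fell by 1.33 ± 0.24 (SE; limma adjusted p = 0.00265). Sqle, squalene epoxidase of cholesterol synthesis, fell by 1.18 ± 0.17 (SE; limma adjusted p = 8.64e-04). Glycolysis had 0 higher and 2 lower of 21, fatty acid oxidation 0 of 19 called by limma (3 at an unadjusted limma p under 0.05), and cholesterol synthesis and uptake 1 higher and 2 lower of 21. The citric acid cycle had 0 higher and 2 lower of 18. Its changes were below 0 in 16 of 18 genes (median -0.15), and those of fatty acid oxidation in 17 of 19 (median -0.21). Over all genes, 7033 of 12137 were below 0 (median -0.09). In iron handling, with 2 higher and 4 lower of 18, the iron transporter Slc11a2 fell by 1.85 and Cp, ceruloplasmin, by 1.73 (limma adjusted p = 0.00273 and 0.00279). Slc25a36, a mitochondrial carrier of pyrimidine nucleotides, was at 13.5, 11.1, 15.6, 14.7 and 11.9 in controls 1 to 5 and at 7.28, 0.696, 0.484, 0.190 and 0.344 in OVA 1 to 5. OVA 1 lay between the other OVA samples and the controls, and Slc25a36 fell by 2.82 ± 0.57 (SE; limma adjusted p = 0.00496).

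Signalling lists leaned lower or went both ways. In the Wnt list, 6 of 31 fell and 1 rose. Wif1, a secreted Wnt inhibitor, ranged from 0.744 to 2.25 in OVA and 3.63 to 9.39 in control lungs and fell by 1.56 ± 0.26 (SE; limma adjusted p = 0.00205), and the receptor Fzd6 fell by 1.15 (limma adjusted p = 0.00255). In Hedgehog signalling, 4 of 10 fell and 0 rose. The receptor and target Ptch1 fell by 0.69 ± 0.18 (SE; limma adjusted p = 0.0172). The target Gli1 fell by 0.63 (limma adjusted p = 0.0377), a call lost without control 1, 2, 3, 4 or 5, or without OVA 1, 2 or 3 (limma adjusted p = 0.0575 to 0.0893). Notch signalling had 2 higher and 2 lower of 19, and TGF-beta and BMP signalling 5 higher and 5 lower of 31 (median 0.01). Notch2, a receptor, fell by 1.1 and Bmp4, a ligand, by 1.25, while Smad6, an inhibitor of BMP signals, rose by 1.07 (limma adjusted p = 0.00318, 0.00563 and 0.00705).

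Clock genes were lower in part, with 5 of 21 lower and 0 higher. Dbp, a clock output whose transcript cycles strongly over the day, was at 34.8, 57.5, 28.7, 26.9 and 27.7 in controls 1 to 5 and at 3.35, 5.54, 11.2, 16.3 and 22.9 in OVA 1 to 5. No sample overlapped, though OVA 5 came close to control 4. Dbp fell by 1.69 ± 0.40 (SE; limma adjusted p = 0.0111), and Cry2, a repressor of the clock, by 0.89 ± 0.16 (SE; limma adjusted p = 0.00262). The hour at which each lung was taken is not given in the sources used here, so time of day and OVA cannot be told apart for these genes.

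Stress lists gave few calls or leaned higher. Heat shock proteins and their cochaperones had 1 higher and 6 lower of 69 (median -0.11). Unfolded protein and integrated stress response genes had 2 higher and 0 lower of 26 (median -0.25). These shares were near or below those over all genes. Immediate early genes had 4 of 19 higher and 0 lower (median 0.23 scaled, -0.64 as deposited). Atf3, a stress-induced transcription factor, was at 2.04, 1.78, 1.42, 1.76 and 5.39 in controls 1 to 5 and at 29.7, 11.6, 9.66, 10.6 and 13.6 in OVA 1 to 5. Control 5 was the highest control and still below all OVA samples. Atf3 rose by 2.18 ± 0.31 (SE; limma adjusted p = 8.16e-04), and Jun, a subunit of AP-1, by 1.04 ± 0.15 (SE; limma adjusted p = 8.16e-04). Of the p53 targets, 4 of 16 rose and 0 fell. Pmaip1, a BH3-only protein that promotes cell death, ranged from 6.09 to 9.91 in OVA and 1.54 to 3.26 in control lungs and rose by 1.38 ± 0.18 (SE; limma adjusted p = 5.57e-04).

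The remaining genes of largest change came from several compartments. Npy, neuropeptide Y, ranged from 22.7 to 173 in OVA and 4.22 to 10.1 in control lungs and rose by 2.56 ± 0.74 (SE; limma adjusted p = 0.0294), a call lost without control 3 or 4, or without OVA 1 or 5 (limma adjusted p = 0.0510 to 0.0713). Bex1 and AA467197 rose by 2.45 and 3.64 (limma adjusted p = 0.0127 and 8.15e-04), and both groups were apart for each. Among the falls were Tymp, thymidine phosphorylase, by 2.49, Upk2, a uroplakin, by 2.51, and Arhgdig by 2.48 (limma adjusted p = 0.0107, 0.00103 and 0.00431). Upk2 reached a deposited value of 1 in no OVA sample and entered the test through the group where it is high. Ppil6, a cyclophilin-like protein, Prob1, and Nanp, a phosphatase of sialic acid synthesis, fell by 2.48, 2.64 and 2.46 (limma adjusted p = 0.0107, 0.00705 and 0.00466). Nanp was listed at 0 in 4 of 5 OVA samples.

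Without control 2, OVA 4 and OVA_Rg3 1, 943 genes rose and 1749 fell. The main groups kept their direction, with 7 club cell, 36 radial spoke, 33 xenobiotic and 14 smooth muscle genes lower, and 7 pan-endothelial, 9 red cell, 58 ribosomal protein and 8 plasma cell genes higher. Lists not counted above moved as well, such as zinc finger genes, from 1 higher and 10 lower to 6 higher and 20 lower. Among lists counted above, moves by over 1.5 times included chemokines (6 higher and 4 lower), B cell genes (4 higher and 0 lower) and T cell genes (2 higher and 1 lower). They also included genes raised by IL-4 and IL-13 (8 higher and 0 lower), interferon-stimulated genes (2 higher and 1 lower) and MHC class I (6 higher and 1 lower). The same held for platelet genes (1 higher and 0 lower), arterial and venous genes (2 higher and 2 lower), Hox and Tbx factors (5 higher and 1 lower), potassium channels (1 higher and 10 lower), Wnt (3 higher and 7 lower) and Notch signalling (2 higher and 1 lower). It also held for translation factors (13 higher and 1 lower), heat shock proteins (1 higher and 12 lower), mitochondrial ribosomal proteins (0 higher and 2 lower), glycolysis (3 higher and 2 lower), fatty acid oxidation (0 higher and 1 lower), other lysosomal genes (2 higher and 2 lower), the proton pump (5 higher and 1 lower) and immediate early genes (4 higher and 1 lower). Alb, the albumin gene of liver, was at 0.206, 158, 0.154, 0.419 and 0.582 in controls 1 to 5 and at 3.27, 0, 2.22, 160.4 and 5.86 in OVA 1 to 5, and its change of 0.99 ± 1.71 (SE; limma adjusted p = 0.759) was not called.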

How the data were processed

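Poly(A) RNA of mouse lung was sequenced with TruSeq libraries, per the labels' protocols. The authors deposited 1 table of values for 14766 protein-coding genes in 15 samples. Its header names no unit, and the deposited values were treated as FPKM because they are not whole numbers and their totals differ between samples. TPM over a larger gene set could not be told apart from FPKM. The builds GRCm39 and mm39, Trimmomatic and featureCounts are named in the submitters' processing notes, and the aligner is not given in the sources used here. Coordinates of 13545 genes equal those of GENCODE M21 on GRCm38, so coordinates are given on that build.

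With no counts, the planned count model was replaced by limma 3.58.1 (R 4.3.3; trend, robust) on log2(scaled value + 1), with 1 mean per group over 15 samples and OVA minus control as the contrast. Genes at 1 or more in at least 5 samples were tested, and an adjusted p under 0.05 (Benjamini-Hochberg over 12137 genes) was called. Scaling used median ratios over 6365 genes. The fit was tested on simulated data. Depth was estimated from the steps that single reads leave in low values of 1768 genes with 1 transcript, of which 38.1% to 51.8% in control and OVA samples fell on a whole step (tolerance 2%; chance gives 8%), so the depths are approximate.

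The comparison, the 116 gene lists and the tests were chosen with earlier results of these data known. No list was tested. Lists are described by counts and medians beside all genes. Named genes are the 15 higher and 15 lower of largest change without overlap and with a mean of at least 5 in the higher group, the 2 called members of smallest p in each list with at least 5 tested genes (the member of highest level where none was called), and 16 fixed genes of allergic inflammation. The rule gave 200 genes, and 159 genes are named, since some are not reported here. Fmo1, Sdc1, Ear1, Eng, Egfl7, Sox18, Tbx2, Car4, Plvap, the markers Scgb1a1, Sftpc and Pecam1, and Cfap74, Dnaic2 and Cfap58, taken for their promoters, lie outside the rule and were named after their values were seen. Replicate numbers did not pair the samples, as same-numbered deviations correlated at -0.14 to 0.18. Alternatives covered scaling, pseudocount, filters, samples in the fit, weights, threshold, the replicate block and left-out samples. Those on deposited values without 3 samples, and on sums without mitochondrially encoded genes and Scgb1a1, were chosen after seeing the data. Shares used Python 3.11.15 and scipy 1.17.1, and figures matplotlib 3.10.9.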

Additional observations from a re-analysis of the deposited data

Results flagged for a closer look

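Single samples stood apart from the other 4 of their group for 23 of 318 combinations of a named gene and a group, by the gap to the nearest sample relative to the range of the group. This is 7.23% of the combinations, and chance gives about 1 in 20 (5%). Control 2, the shallowest control, was highest or lowest 6 times. It was apart for Mmp12 at 3.14 (others 0.299 to 0.590), Arg1 at 6.22 (others 0.230 to 0.592), Rnase2a at 3.08 (others 0.110 to 0.463), mt-Co2 at 17980 (others 6653 to 8086), Mmp2 at 3.68 (others 6.38 to 7.68) and Alb at 158 (others 0.154 to 0.582). Among controls it was also the sample with liver, skeletal muscle and fat transcripts, whose part in these 6 values was not tested. 

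OVA 1 was apart 4 times, for Npy at 173 (others 22.7 to 38.7), Slc25a36 at 7.28 (others 0.190 to 0.696), Mmp2 at 1.77 (others 3.06 to 3.17) and Pmaip1 at 9.91 (others 6.09 to 6.80). It had the lowest mitochondrial share and the highest lipid-handling macrophage list mean of the OVA samples. OVA 3 was the lowest sample for Ctsh at 3.56 (others 10.8 to 15.1), Hspa12b at 6.66 (others 11.2 to 13.7), Tbx2 at 17.3 (others 22.7 to 24.9) and Egfl7 at 18.6 (others 44.2 to 56.3). OVA 4 was apart for Nanp at 3.22 (others at 0), and OVA 5 for Myh11 at 3.56 (others 6.63 to 8.30) and Col23a1 at 2.56 (others 4.56 to 5.56). 

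Control 5 was apart for Bmx at 7.04 (others 10.6 to 12.1), Atf3 at 5.39 (others 1.42 to 2.04), Gli1 at 1.80 (others 1.20 to 1.33) and Eng at 17.8 (others 10.9 to 11.8). Control 1 was lowest for Nfkbia at 61.6 (others 89.2 to 98.7), and control 3 was highest for Epas1 at 166 (others 151 to 154), a small gap in a narrow group.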

How the results depend on the processing

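The counts were 655 higher and 1278 lower. Values as deposited gave 70 and 6216 (108 and 6586 without control 2, OVA 4 and OVA_Rg3 1), array weights 1286 and 2326, a minimum log2 change of 1 gave 2 and 3, and sums without mitochondrially encoded genes and Scgb1a1 gave 409 and 1738. A filter at 5, which tests fewer genes, gave 566 and 800, and 61 rises held under all 3 scalings. Leaving out 1 sample gave 406 to 613 higher and 761 to 1260 lower. The count of rises was more than 1.5 times smaller without control 3 (414) or control 4 (406), and that of falls without control 1 (833), control 3 (761), control 4 (803) or OVA 5 (828). Quantile normalisation, a pseudocount of 0.1, no filter, median ratios over genes at 5 or more, only 10 samples, and leaving out 3 samples kept both counts within 1.5 times. With the replicate block, 613 genes were higher and 1232 lower, and the block ended the calls of Npy, Ndufa6, Psmb8, Gli1, Ccl24, Car4, Eng, Egfl7 and Plvap. The samples share a number and not a source, with 1 of 5 controls correlating best with its own number. The cause of each shift was not tested.

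Deposited values put all genes lower (median -0.73 against -0.09), which by itself keeps falls and takes small rises: all 80 named falls kept their call there, and of 70 named rises 38 lost it and 5 reversed. At or below 0 as deposited were Nfkbia (-0.12), Ndufa6 (-0.26, and -0.22 without the 3 samples), Eif3e (-0.0017), Psmb8 (-0.0017 and -0.0048), Atp6v1a (-0.14 and -0.050), Tslp (-0.11 and -0.43), Tbx2 (-0.094 and -0.11), Pecam1 (-0.25 and -0.29) and Sftpc (-0.54 and -0.51). H2-T22 reversed only as deposited without the 3 samples (-0.015). Under quantile normalisation mt-Co1 (-0.051) and Sftpc (-0.49) reversed, and mt-Co3, mt-Cytb, Gli1, Ndufa6, Psmb8, Car4 and Plvap lost their call. Over the fits without 1 sample, Alb ranged from -0.15 to 2.37, S100a9 from -1.19 to 0.043 and Sftpc from -0.0022 to 0.58. A pseudocount of 0.1 ended the calls of Npy, Scgb1c1, Cnn1, Ppil6, Arhgdig, Calca, Pi16, Actc1, C3ar1, Xcr1, Rsad2, Ndufa6, Psmb8, Gli1, Ccl24, Car4, Eng, Plvap and Cfap58. Of 150 named called genes, 125 kept their call without each of the 10 samples in turn. The difference in mitochondrial share was 36.7 to 45.1 percentage points over these fits. Low values of control 2, at 0.842 M reads, are limited by depth.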
